A study of Mus musculus with 16 samples.

Results

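Untreated mouse embryonic stem (ES) cells that lack Cfp1 were compared with untreated wild-type (WT) ES cells by RNA sequencing. The members are the samples whose labels give the treatment as Control, 8 of the 16 deposited samples, which are 4 of the 8 biological replicates of the study because each was sequenced as a pair of technical replicates. All samples are of strain 129/OLA, and the cells were grown on gelatin, with serum and LIF, and no feeder layer is given. The WT group is E14Tg2a with 2 biological replicates, the other group is Cfp1−/− with 2, and the samples treated with doxorubicin served in the comparison to estimate the spread between replicates. Each genotype is a single line as far as the labels say, so the effect of Cfp1 loss and differences between the lines cannot be told apart. Summed over technical replicates, the libraries held 29422711 and 24158994 counts in WT cells and 23383421 and 25308913 in Cfp1−/− cells. No label says that the replicates came from separate cultures, so p-values measure only the spread between these samples.

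Cfp1, the product of Cxxc1, has a CXXC domain that binds CpG dinucleotides without DNA methylation, and it is a subunit of the Set1 complexes, which trimethylate lysine 4 of histone H3. That mark lies over the promoters of active genes, most of which sit in CpG islands. The comparison addresses which genes differ in steady-state RNA between the lines when no DNA damage is given.

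Away from chromosomes 7 and 11, Cfp1−/− cells had more RNA of germline genes such as Dazl and Sohlh2 and of the basement membrane genes Lama1, Col4a1 and Col4a2, while naive pluripotency genes moved in both directions. They had less RNA of some primed epiblast genes such as Fgf5, of some Nodal pathway genes such as Lefty1 and Skil, of the keratins Krt8 and Krt18, of the glycolytic genes Eno1 and Tpi1 and of ribosomal protein genes. In the primed epiblast list 12 of 22 tested genes did not reach an adjusted p-value under 0.05, and in the Nodal and BMP list 31 of 42. The log2 fold change of Fgf5 was -3.36 with all libraries and -1.57 without WT replicate 2. A few genes were near 0 in one line and well transcribed in the other, with Olig2 and Kdm5d seen in Cfp1−/− cells and Gbp1 and Kbtbd11 in WT cells. On chromosomes 7 and 11 most genes were moderately higher, with medians of 0.53 and 0.51 on the log2 scale, and the genes of these chromosomes are described apart.

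The targeted gene came first. Cxxc1 (ENSMUSG00000024560, chromosome 18, 74375785 to 74381145) had 1199 and 1164 normalized counts in the WT replicates and 3.71 and 2.54 in the Cfp1−/− replicates. Normalized counts are those of the authors, the summed counts divided by a size factor of each biological replicate, and a log2 fold change or log2 ratio is the fitted one of Cfp1−/− over WT cells with its standard error (SE), n = 2 in each group. With 4 and 3 raw counts left in the Cfp1−/− replicates, the ratio of WT to Cfp1−/− was 375, with a 95% counting interval from 182 to 934 that covers counting error only. Both Cfp1−/− replicates were near 0 and both WT replicates were far above them. The catalytic subunits of the Set1 complexes were not lower. Setd1a, on chromosome 7, had 549.6 and 552 normalized counts in WT and 1193 and 887 in Cfp1−/− cells. Setd1b had 518 and 323 in WT and 1752 and 621 in Cfp1−/− cells, a log2 ratio of 1.52 that was 0.61 without Cfp1−/− replicate 1 and 1.22 without WT replicate 2, neither of which passed the test, nor did it with DESeq2's Wald test. For both genes all Cfp1−/− values lay above all WT values. The shared subunits Wdr5, Wdr82, Ash2l and Hcfc1 did not pass the test, with log2 fold changes of -0.02, -0.05, -0.48 and -0.12, while Rbbp5 rose by 0.54. Ash2l, lower in both Cfp1−/− replicates, was close to the limit and passed in 6 alternative fits, among them those with DESeq2's size factors and the replicate block, and without Cfp1−/− replicate 2 (-0.66). Of 33 tested genes for writers and erasers of methylated lysine 4, 6 rose and 6 fell (18.2% each, beside 17.9% and 16.1% of all tested genes), with a median log2 fold change of -0.02 that ranged from -0.08 to 0.15 over the 4 fits that each leave out a library, called leave-out fits below. Besides Setd1a, Setd1b and Rbbp5 those that rose were the methyltransferase genes Wbp7 (1.06) and Mll3 (0.88) and the Y-linked demethylase gene Kdm5d, and those that fell were Cxxc1, Setd7 (-1.64), Kdm2b, Kdm1b, Psip1 and Kdm1a. Several of these rest on single libraries. Without WT replicate 2 Setd7 was at -1.09, short of the fold limit, and Rbbp5 (0.43), Wbp7 (0.97) and Mll3 (0.55) did not pass, nor did they without Cfp1−/− replicate 1 (0.46, 0.71 and 0.64). Kdm2b did not pass without WT replicate 1 (-0.56) or Cfp1−/− replicate 2 (-0.53), and Kdm1b did not without WT replicate 1 (-0.44) or Cfp1−/− replicate 1 (-0.43). Kdm1a, between -0.50 and -0.42, passed in none of the 4 fits that leave out a library, and Psip1 passed only without Cfp1−/− replicate 2 (-0.72). Kdm6a (-0.46) and Dpy30 (-0.40) did not pass, but both did as lower with the replicate block. Kdm6a also passed in other alternative fits, among them those with DESeq2's size factors and with untreated libraries alone.

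Marker genes were used to check the labels. All 10 genes of an ES cell identity list were measured, at sums of 103600.0 and 78566 normalized counts in WT and 92961 and 90859 in Cfp1−/− cells, and Tdgf1 was the most abundant. Pou5f1, the core pluripotency factor, had 16753 and 13807 in WT and 9207 and 9918 in Cfp1−/− cells, and Sox2 had 12059 and 8049 and 10266 and 11133. Of the list 3 rose, Fgf4, Nanog and Utf1, and 3 fell, Zfp42, Pou5f1 and Tdgf1 (30.0% each, beside 17.9% and 16.1% of all tested genes). The list's median of 0.21 was -0.20 outside chromosomes 7 and 11, 0.40 without WT replicate 1 and 0.07 without WT replicate 2. Tdgf1 did not pass without WT replicate 1 (-0.44) or Cfp1−/− replicate 1 (-0.40). For feeder fibroblast genes the sum over all 12 was 1438 and 1353 normalized counts in WT and 863 and 974 in Cfp1−/− cells, which was at most 0.00575% of a library. Fbn1 was the most abundant, Lum was at or under the floor of 3 counts in every library, and Col3a1 had 73 and 43 raw counts in WT and 0 and 1 in Cfp1−/− replicates. Of 10 tested fibroblast genes, 1 rose, Pdgfrb (10.0%, beside 17.9% of all tested genes), and 4 fell, Col3a1, Col1a1, Col1a2 and Acta2 (40.0%, beside 16.1%). The median of these 10 was -0.47, but -0.95 without Cfp1−/− replicate 2 and -0.87 without WT replicate 2. Any part of such cells in the results was not tested. Members of a list spelled out beside a count of 5 or fewer were chosen after their values were seen wherever the rule for named genes does not hold them.

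Sex-linked genes and Hprt showed how far the lines differ beyond Cxxc1. Uty and Eif2s3y, on the Y chromosome, had 2613 and 1950.4 and 5589 and 4085 normalized counts in WT and 2538 and 2618 and 6428 and 7472 in Cfp1−/− cells, so both lines carry transcribed Y genes. Kdm5d (ENSMUSG00000056673, chromosome Y, 234231 to 280254), which encodes a demethylase of lysine 4 of histone H3, had 3.40 and 3.13 in WT and 1003 and 1189.9 in Cfp1−/− cells. From 4 and 3 raw WT counts, the ratio was 343 (95% counting interval 166 to 853). Zfy2 had 3 and 0 raw counts in WT and 74 and 95 in Cfp1−/− replicates, a ratio of 54.2 (18.2 to 266). Of 7 tested genes of the Y-linked list, 4 rose, Kdm5d, Zfy2, Zfy1 and Ddx3y (57.1%, beside 17.9% of all tested genes). None fell by edgeR's quasi-likelihood test (beside 16.1%), and the median was 0.96. Without WT replicate 2 or Cfp1−/− replicate 2 Ddx3y did not pass, at 0.92 and 0.77, and Zfy1 was short of the fold limit, at 1.15 and 1.32. Sry was at or under the floor in every library, and Xist and Tsix were not analysed here. Hprt (ENSMUSG00000025630, chromosome X, 50341314 to 50374836), which encodes a purine salvage enzyme that E14Tg2a is known to lack, had 34.8 and 42.7 normalized counts in the WT replicates. In Cfp1−/− replicates it had 3461 and 3532, a log2 ratio of 6.53 (SE 0.292). Low Hprt RNA was thus measured in the WT line alone, and the genetic history of the Cfp1−/− line is not given in the labels.

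Genes were called when the adjusted p-value of edgeR's quasi-likelihood test was under 0.05, the fold change at least 2.5 and the mean at least 200 normalized counts over the 4 replicates. Over all 15758 tested genes 287 were called higher (1.82%) and 238 lower (1.51%), and by the adjusted p-value alone 2825 rose (17.9%) and 2537 fell (16.1%). Outside chromosomes 7 and 11, which left 13196 genes, 187 were called higher (1.42%) and 220 lower (1.67%), while 1808 rose (13.7%) and 2419 fell (18.3%) by the adjusted p-value alone. The share of higher genes among those called there was 45.9%. Scaling by total counts in place of TMM shifted the median of all genes by 0.19 and gave 243 higher and 147 lower, a share of 62.3%, so the split between higher and lower genes is relative to the scaling. TMM factors computed without chromosomes 7 and 11 shifted it by 0.11 and gave 211 and 181. Changes of at least 3 on the log2 scale were found in 36 higher and 25 lower genes outside these chromosomes. Of the 187 higher genes, 19 (10.2%) had under 50 normalized counts in both WT replicates, and of the 220 lower genes 8 (3.64%) had under 50 in both Cfp1−/− replicates, so most called genes were transcribed in both lines. Leaving out each library in turn kept 262 of the 407 calls in all 4 fits and changed the sign of none. By the adjusted p-value alone, 4227 genes passed with all libraries, but 2517 without WT replicate 2 and 2322 without Cfp1−/− replicate 1.

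Olig2 (ENSMUSG00000039830, chromosome 16, 91225795 to 91228922), a transcription factor gene of oligodendrocyte and motor neuron precursors, had the highest log2 fold change of the genes called outside chromosomes 7 and 11. It had 1 and 2 raw counts in WT and 780 and 702 in Cfp1−/− replicates, a ratio of 476 (95% counting interval 162 to 2310). Plagl1 (ENSMUSG00000019817, chromosome 10, 12810497 to 12851500), an imprinted zinc-finger gene, had 7.64 and 15.6 normalized counts in WT and 1325 and 957 in Cfp1−/− cells. Its log2 ratio was 6.67 (SE 0.502, Benjamini-Hochberg adjusted p = 5.04e-05 by the quasi-likelihood test of edgeR, higher in 2 of 2 Cfp1−/− replicates). Adnp (ENSMUSG00000051149, chromosome 2, 168006486 to 168032612), which encodes a zinc-finger homeobox protein, had 86.6 and 80.3 in WT and 5999 and 4709.8 in Cfp1−/− cells. Nnat, an imprinted gene for a small membrane protein of neural tissue, had 11.04 and 18.8 and 393 and 787. In these genes both WT replicates were low and both Cfp1−/− replicates high. Of the 15, Hprt, Xlr3a, Xlr3b, Scml2 and Nxf3 are X-linked. Scml2, a Polycomb-related gene of the germline, had 109.6 and 131 in WT and 3851 and 4076 in Cfp1−/− cells, and Nxf3, of a family of mRNA export factors, had 75.6 and 72.97 and 1740.1 and 1923. Xlr3a and Xlr3b, with log2 fold changes of 5.99 and 6.43, are near-identical copies whose counts are uncertain. The others were Kdm5d, Ccdc152 (5.64), Car8 (4.58), a carbonic anhydrase relative, Ly6g6e (4.11), Dcdc2a (4.10), of the doublecortin family, and Dhrs7 (4.07), a short-chain dehydrogenase.

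At the other end lay Gbp1, Cxxc1 and Hist1h2al. Gbp1, a guanylate-binding protein gene of the interferon response, had 348 and 1505 raw counts in WT and 0 and 3 in Cfp1−/− replicates, a ratio of 641 (95% counting interval 219 to 3110). Hist1h2al, one of many near-identical histone H2A genes, had 3183 and 2905 normalized counts in WT and 16.7 and 17.7 in Cfp1−/− cells. Kbtbd11 (ENSMUSG00000055675, chromosome 8, 15011025 to 15033330), which encodes a kelch repeat protein, had 796 and 594 in WT and 4.64 and 5.07 in Cfp1−/− cells, with a log2 ratio of -7.10 (SE 0.595, Benjamini-Hochberg adjusted p = 8.48e-05 by the quasi-likelihood test of edgeR, lower in 2 of 2 Cfp1−/− replicates). All Cfp1−/− values of these genes were far under the lowest WT value. Aass, an enzyme of lysine breakdown, had 527 and 849 in WT and 13.9 and 26.2 in Cfp1−/− cells. Sned1, a matrix protein gene, had 1805 and 2384 and 110.3 and 75.2, and Slc23a1, a vitamin C transporter gene, had 465 and 520.2 and 24.1 and 38.03. The neural and eye transcription factor gene Pax6 (ENSMUSG00000027168, chromosome 2, 105509053 to 105543317) had 1761 and 738 in WT and 108 and 91.3 in Cfp1−/− cells, so the WT replicates differed by a smaller ratio from each other than from the other line. The rest of the 15 were Trim67 (-6.21), Ppp4r4 (-4.35), Capn3 (-4.08), Fxyd6 (-3.54), Sycp3, Sfmbt2 (-3.49), a Polycomb-related gene of the placenta, and Krt8 (-3.39). WT replicate 2 was the higher of its pair in Gbp1, Ppp4r4 and Krt8, whose log2 fold changes without it were -7.65, -2.78 and -2.53.

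**Figure D1:**
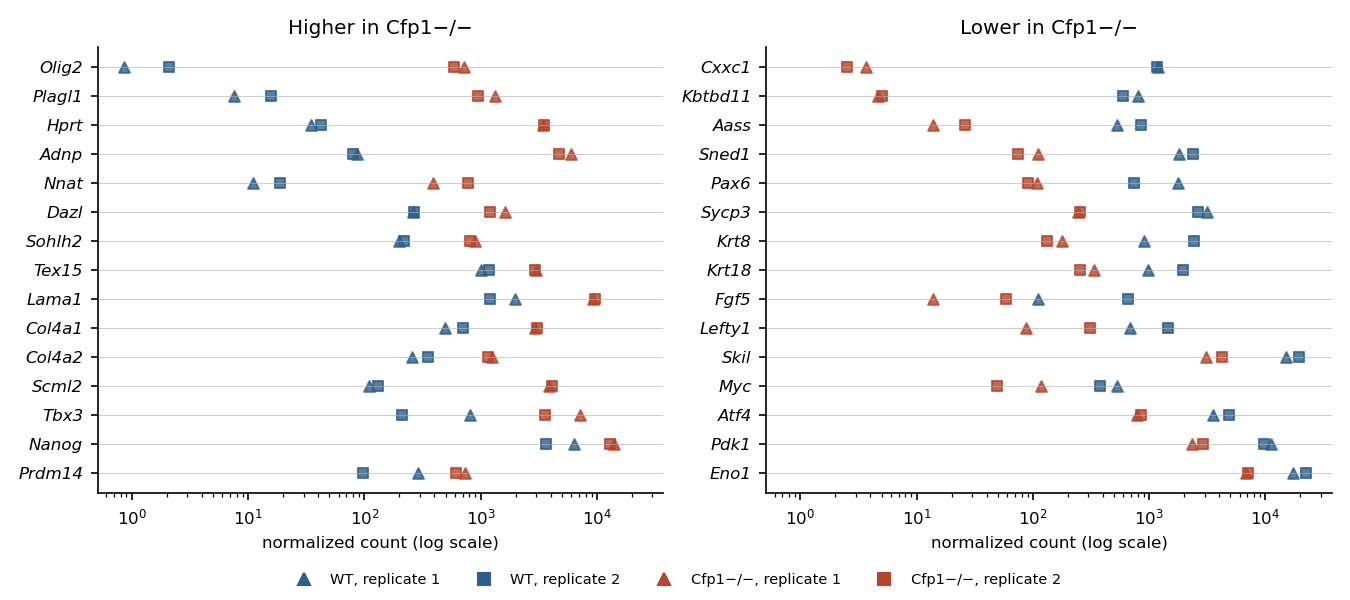
Normalized counts on a log axis of 30 genes named in the text, one point per biological replicate (triangles replicate 1, squares replicate 2) in WT (blue) and Cfp1−/− (red) cells. Cxxc1 and Olig2 are among the genes with wide gaps, and in every gene drawn the points of the lines do not overlap.

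Genes of the naive pluripotent state, which LIF maintains, moved in both directions. Of 33 tested, 9 rose and 6 fell (6 and 6 outside chromosomes 7 and 11, with a median of -0.13), and the median was 0.07, beside 0.01 for all tested genes, of which 17.9% rose and 16.1% fell. Without WT replicate 2 the median was -0.17, and without WT replicate 1 it was 0.49. Nanog (ENSMUSG00000012396, chromosome 6, 122657507 to 122664651) had 6419 and 3651 normalized counts in WT and 14049.9 and 13038 in Cfp1−/− cells, and Tbx3 had 818 and 209.5 and 7124 and 3548. Prdm14, a repressor of differentiation genes, had 289.6 and 96.9 and 741 and 610.2. In all of these the WT replicates were below the Cfp1−/− replicates, with WT replicate 2 the lowest library. Their log2 fold changes were 1.46 for Nanog, 3.40 for Tbx3 and 1.83 for Prdm14. Without WT replicate 2 that of Nanog was 1.10 and did not pass the test and that of Prdm14 was 1.24, short of the fold limit, while without Cfp1−/− replicate 1 Tbx3 (2.83) and Prdm14 (1.70) did not pass. The others that rose were Fgf4 (1.71), Pecam1 (1.71), Dppa3 (1.53), Nr5a2 (1.32), Klf2 (0.85) and Utf1 (0.72). Dppa3, a maternal factor that protects 5-methylcytosine in the early embryo, kept to a narrow range of 1.42 to 1.67 over the fits that each left out a library. Nr5a2 did not pass without WT replicate 2 (0.96), without Cfp1−/− replicate 1 (1.18) or without Cfp1−/− replicate 2 (1.48), nor was it called with DESeq2's size factors. Pecam1 did not pass without Cfp1−/− replicate 1 (1.47) and was short of the fold limit without WT replicate 2 (1.23). Klf2 passed only without Cfp1−/− replicate 2 (1.00), and Utf1, from 0.60 to 0.86, in none of the 4 fits. Gbx2 (-1.73), Zfp42 (-1.31), Gdf3 (-0.78), Lin28a (-0.76), Pou5f1 (-0.65) and Dppa4 (-0.56) fell. Of these, Zfp42 and Dppa4 passed only without WT replicate 2 (-1.61 and -0.70) when a library was left out, and Gdf3, from -0.85 to -0.70, in no such fit. Pou5f1 did not pass without WT replicate 1 (-0.49) or Cfp1−/− replicate 1 (-0.58), nor Lin28a without WT replicate 2 (-0.65) or Cfp1−/− replicate 1 (-0.49), and Gbx2 was short of the fold limit without WT replicate 1 (-1.27) or Cfp1−/− replicate 2 (-1.26). The naive factor genes Klf4, Esrrb, Tcfcp2l1 and Klf5 did not pass with all libraries, at 0.46, 1.23, 1.25 and -0.14. With the replicate number as a block Klf4, Esrrb, Tcfcp2l1 and Zfp296 (0.85) passed as higher and Dppa5a (-0.51) and Fbxo15 (-0.46) as lower. Esrrb and Tcfcp2l1 also passed with no low-count filter, and Esrrb with untreated libraries alone. Of 24 tested genes of the LIF and Stat3 pathway 5 rose, Il6ra, Stat5a, Lif, Jak3 and Stat3, and 4 fell, Gbx2, Socs2, Ptpn11 and Pim3 (20.8% and 16.7%, near the shares of all tested genes), with a median of 0.06 that ranged from -0.04 to 0.21 over the leave-out fits. Stat5a, Lif and Stat3 lie on chromosome 11, and outside chromosomes 7 and 11 the median was -0.12.

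Primed epiblast genes, which mark the state that follows the naive one, had a median below 0, though 12 of 22 did not pass. Of the 22 tested, 9 fell (40.9%, beside 16.1% of all tested genes) and 1 rose (4.55%, beside 17.9%), with a median of -0.84. Fgf5, a growth factor of the epiblast, had 110.4 and 658 normalized counts in WT and 13.9 and 58.3 in Cfp1−/− cells. Its WT values were above its Cfp1−/− values, but WT replicate 2 was far above WT replicate 1, and its log2 fold change of -3.36 (SE 0.892) was -1.57 without WT replicate 2 and -2.67 without Cfp1−/− replicate 1, where it did not pass the test. Lef1, a Wnt effector, fell by 1.80 on the log2 scale, and without Cfp1−/− replicate 1 by 1.22, short of the fold limit. Otx2, a transcription factor gene of the epiblast, fell by 0.94 on the log2 scale. Dnmt3b, the most abundant of the list, had 13066.5 and 22781 normalized counts in WT and 9359 and 11402 in Cfp1−/− cells, and did not pass. The exception was Pou3f1, chosen here after its values were seen, with 0 and 0 raw counts in WT and 91 and 253 in Cfp1−/− replicates, at least 53.5-fold higher when each WT library is set to 3 counts. With Pou3f1 at that bound the median of the list was -0.84 as well.

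Pathways that act on the epiblast had more genes that fell than rose, though most Nodal and BMP genes did not pass. In the Nodal and BMP pathway 11 of 42 tested genes fell (26.2%, beside 16.1% of all tested genes) and none rose by edgeR's quasi-likelihood test. The median of this list was -0.49, and with total count scaling -0.30 beside 0.20 for all genes. Lefty1, a Nodal antagonist that Nodal itself induces, had 679 and 1465 normalized counts in WT and 88.1 and 308 in Cfp1−/− cells. Skil, which encodes a repressor of Smad proteins, had 14908 and 19311 and 3061 and 4204, and its log2 ratio was -2.21 (SE 0.192). For both genes the lower WT value exceeded the higher Cfp1−/− value. Id1 and Id3, which BMP induces, fell by 2.56 and 1.41 on the log2 scale, and Lefty2, at -0.16, did not pass. Id2 (0.34), Id4 (1.01), Smad6 (0.73) and Smad7 (0.50) lay above 0 and did not pass either. In the FGF and ERK list 16 of 38 tested genes fell (42.1%, beside 16.1% of all tested genes) and 5 rose (13.2%, beside 17.9%), with a median of -0.65. Negative feedback genes were among those that fell, with Dusp4 at -1.87, Spred1 at -1.62, Spry1 at -1.11 and Dusp6 at -0.91, and without WT replicate 1 Spred1 was at -1.26, short of the fold limit. Myc had 528 and 376 in WT and 117 and 49.02 in Cfp1−/− cells, and without Cfp1−/− replicate 2 its log2 fold change of -1.92 did not pass. Fgf3, Egr1, Fgf4, Etv4 and Grb2 rose, of which Fgf3, Fgf4, Etv4 and Grb2 lie on chromosomes 7 or 11, and the early response gene Egr1 had 233 and 377 in WT and 1148 and 1374 in Cfp1−/− cells. Of 17 tested genes of the primitive streak and mesendoderm 4 fell (23.5%, beside 16.1% of all tested genes), Sp5, Lefty1, T and Axin2, and none rose by the same test, with a median of -0.22. Axin2 did not pass without Cfp1−/− replicate 2 (-0.92), and the median of this list ranged from -0.68 to 0.19 over the leave-out fits, above 0 only without WT replicate 2, and was -0.62 with untreated libraries alone.

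**Figure D2:**
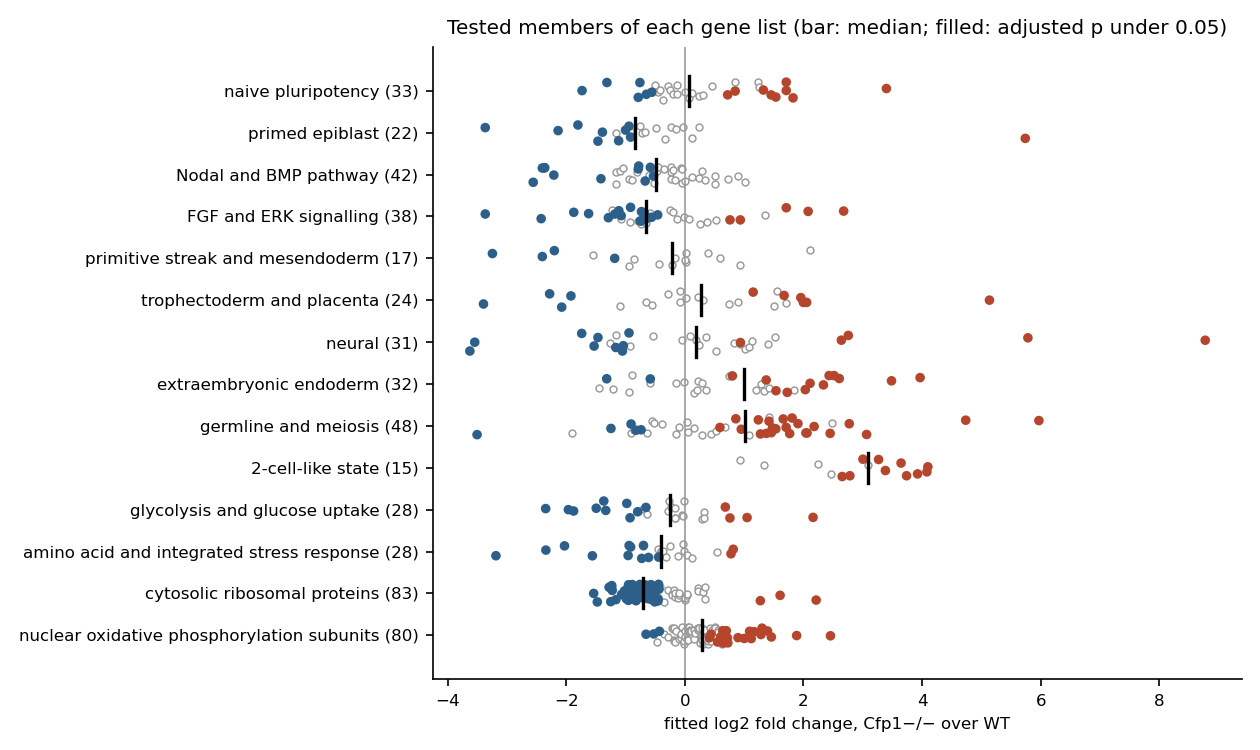
Fitted log2 fold changes of the tested members of 14 gene lists, one point per gene, filled red or blue where the adjusted p-value was under 0.05, with the number tested in brackets, the list's median as a bar and genes with a group at 0 counts drawn at their bound. Primed epiblast, FGF, Nodal and ribosomal protein genes lie mostly left of 0, and germline and 2-cell-like genes mostly right of 0.

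Of 32 tested genes of the extraembryonic endoderm, 12 rose (37.5%, beside 17.9% of all tested genes) and 2 fell (6.25%, beside 16.1%), with a median of 1.24. With Afp, which had 0 and 0 raw counts in WT, at its bound the median was 1.00, and without Cfp1−/− replicate 1 it was 0.54. Taken per replicate number, the list's median was 1.79 for replicate 1 and 0.42 for replicate 2. Most of the list was at low counts. Its median level was 33.0 normalized counts, and 23 of the 32 genes were under the mean limit for calls. Of the 5 called genes, all higher, Lama1, Col4a1, Col4a2 and Sparc, the last on chromosome 11, encode basement membrane proteins, which parietal endoderm secretes and ES cells also make, and Tfpi encodes an inhibitor of coagulation. Lama1 (ENSMUSG00000032796, chromosome 17, 68046605 to 68171985), a laminin chain, had 1965 and 1204 normalized counts in WT and 9298 and 9614 in Cfp1−/− cells, a log2 ratio of 2.60 (SE 0.222, Benjamini-Hochberg adjusted p = 9.09e-05 by the quasi-likelihood test of edgeR, higher in 2 of 2 Cfp1−/− replicates). Col4a1 (ENSMUSG00000031502, chromosome 8, 11198423 to 11312826) had 494 and 708 in WT and 2908 and 3036 in Cfp1−/− cells, and Col4a2 (ENSMUSG00000031503, chromosome 8, 11312805 to 11449287), its head-to-head neighbour, had 255 and 352 and 1259.9 and 1169. These collagen IV genes were higher in both Cfp1−/− replicates by a similar ratio, with log2 fold changes of 2.34 and 2.03. Sparc rose by 1.73, and Tfpi by 1.54, which was 1.11 without WT replicate 2. Among transcription factor genes of this lineage Sox17 was at 5.95 and 2.08 in WT and 6.49 and 1.69 in Cfp1−/− cells, and Gata6 was at 15.3 and 4.17 in WT and 38.0 and 15.2 in Cfp1−/− cells, and neither passed. Apoa1 and Ttr were at or under the floor in every library, and Apoe and Lrp2 fell by 1.32 and 0.58 on the log2 scale. Summed over the 34 genes of the list, 49576 and 51689 normalized counts were measured in WT and 60939 and 59489.8 in Cfp1−/− cells, and Lrp2 was the most abundant. Whether more cells of this type or more RNA per cell lie behind such sums cannot be told apart in bulk RNA.

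Genes of the wider matrix list, which also holds Lama1, Col4a1, Col4a2 and Sparc, moved in both directions. Of 89 tested collagen, laminin and other matrix genes, 23 rose (25.8%, beside 17.9% of all tested genes) and 17 fell. The share that fell was a little above the 16.1% of all tested genes. The list's median of 0.34 was 0.11 without WT replicate 1. Besides Lama1, Col4a1, Col4a2 and Sparc, the called genes that were higher included Lama3 (1.67), Nid1 (1.47), Timp1 (1.41) and Hspg2 (1.39). Nidogen, perlecan and the laminin chains they bind all belong to basement membranes. The fibrillar collagen gene Col1a2 fell by 1.57 on the log2 scale, and Thbs1, for thrombospondin, by 2.58. The most abundant matrix gene, Fn1, for fibronectin, had 21223 and 17596 normalized counts in WT and 43977 and 32562 in Cfp1−/− cells. The list of cadherins, protocadherins and integrins also holds claudins. Of its 81 tested genes 13 rose (16.0%) and 9 fell (11.1%), beside 17.9% and 16.1% of all tested genes. The list's median of -0.03 was -0.23 outside chromosomes 7 and 11, with 8 that rose and 9 that fell. With untreated libraries alone it was -0.18. The E-cadherin gene Cdh1, the most abundant, had 12826 and 18164 in WT and 12466 and 10455 in Cfp1−/− cells and did not pass.

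Lists of other lineages held genes of both directions. In the trophectoderm and placenta list 6 of 24 tested genes rose, a share above the 17.9% of all tested genes. In this list 4 fell (16.7%, near the 16.1% of all tested genes). The list's median of 0.27 was -0.44 without Cfp1−/− replicate 1 and -0.09 without WT replicate 1. The 4 that fell were the simple epithelial keratin genes Krt8, Krt18 and Krt19 and Cited2, which were all called. None of the 6 that rose was called, so they are not named here. The highest log2 fold change of the list was 5.14, and 15 of the 24 genes were under the mean limit for calls. Krt8 (ENSMUSG00000049382, chromosome 15, 101827142 to 101834773) had 906 and 2421 normalized counts in WT and 177 and 133 in Cfp1−/− cells, and its partner Krt18 had 981 and 1954 and 337 and 254. WT replicate 2 was the highest library for both, and the Cfp1−/− replicates were below both WT replicates. Krt19, at -1.92, did not pass without WT replicate 2 (-0.85), without Cfp1−/− replicate 1 (-1.71) or without Cfp1−/− replicate 2 (-2.14). Of 31 tested neural genes 9 fell (29.0%, beside 16.1% of all tested genes), among them Pax6, Zic1 and Mtap2 (-1.74), and 5 rose, among them Olig2, Neurog1, Mapt and Tubb3. The median was 0.19, from 0.24 to 0.38 over the leave-out fits and -0.20 with untreated libraries alone, and 8 of the 45 neural genes in the table were at or under the floor in every library. Mapt, the tau gene on chromosome 11, had 134 and 46.9 in WT and 638 and 482 in Cfp1−/− cells. Among 36 tested genes of mesoderm, heart, blood and vessel 7 rose (19.4%) and 5 fell (13.9%), near the 17.9% and 16.1% of all tested genes. Without the genes of chromosomes 7 and 11, 3 rose and 5 fell. The list's median of 0.19 was 0.04 outside these chromosomes and 0.09 without Cfp1−/− replicate 2. Tek, an endothelial receptor gene, had 621 and 534 in WT and 1519 and 1738 in Cfp1−/− cells, while the smooth muscle genes Tagln and Acta2 fell by 2.77 and 1.89 on the log2 scale, as did Tal1, Tcf15 and Runx1. Without WT replicate 1 Tcf15 was at -1.02, short of the fold limit. Of the Hox genes 19 of 39 were at or under the floor in every library and 6 were tested, of which 1 rose and 1 fell, with a median of 0.09 that was 0.77 without WT replicate 2, 0.55 without WT replicate 1 and -1.07 with first technical replicates. Hoxb9 rose, at under 60 normalized counts. From 10 and 3 raw counts in WT and 36 and 30 in Cfp1−/− replicates, the ratio of Hoxb9 was 4.89 (95% counting interval 2.67 to 9.66), and it did not pass without WT replicate 2 (1.80) or without Cfp1−/− replicate 1 (2.10).

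Germline genes, which most cells of the body keep silent, included many that were higher. Of 48 tested germline and meiosis genes 23 rose (47.9%, beside 17.9% of all tested genes) and 5 fell, with a median of 1.02, and leaving out a library gave medians from 0.84 to 1.14. Dazl (ENSMUSG00000010592, chromosome 17, 50418719 to 50432924), which encodes an RNA-binding protein that germ cells need, had 259.9 and 268 normalized counts in WT and 1621 and 1206 in Cfp1−/− cells. Its log2 ratio was 2.45 (SE 0.282, Benjamini-Hochberg adjusted p = 0.000354 by the quasi-likelihood test of edgeR, higher in 2 of 2 Cfp1−/− replicates). Sohlh2, a transcription factor gene of early germ cells, had 199.6 and 219 in WT and 896 and 816 in Cfp1−/− cells, and Tex15, a gene of meiotic recombination and transposon silencing, had 1006 and 1187 and 2989.8 and 2919.8. Every Cfp1−/− value of these genes lay above every WT value. Hormad2 and Syce1, of the meiotic chromosome axis and the synaptonemal complex, had log2 ratios of 3.06 and 1.81 but lie on chromosomes 11 and 7. Asz1, a gene of the piRNA pathway, had 7.64 and 4.17 in WT and 429 and 329 in Cfp1−/− cells, a log2 fold change of 5.97, and the piRNA-binding protein genes Piwil1, Piwil2 and Piwil4 rose by 2.18, 1.48 and 1.91. Sycp3 (ENSMUSG00000020059, chromosome 10, 87922314 to 87935981), an axial element gene, went the other way, with 3130.1 and 2610.3 in WT and 244 and 253 in Cfp1−/− cells. Its log2 ratio was -3.50 (SE 0.174), both Cfp1−/− replicates were far below WT, and the other genes that fell were Zcwpw1, Tdrkh, Syce2 and Tex19.1. Rnf17, the most abundant of the list, had 4205 and 3849.8 in WT and 4142 and 3975 in Cfp1−/− cells.

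Because Cfp1 binds CpG, the 250 bases upstream of each annotated gene start were read from the NCBIM37 genome, for 15754 of 15758 tested genes, and their CpG content was described. This reading was chosen after the values were seen, and a match is a description. The median number of CG was 13 over all tested genes and 16 over those whose mean reached 200 normalized counts, 12 in the genes called higher and 14 in those called lower outside chromosomes 7 and 11, and 10 and 11.5 in those called higher on chromosomes 7 and 11. At least 10 CG were found in 62.4% of all tested genes, 75.6% of those with a mean of at least 200, 59.4% of the called higher and 64.1% of the called lower genes. The median was 6 in the naive pluripotency list, 13 in the germline list, 14.5 in the primed epiblast list and 14 in the ribosomal protein list. The E-box CACGTG, a palindrome that reads alike on both strands, occurred in 16 of the 48 germline windows (33.3%), against 7.89% of all tested genes. The letters GCGGGA, searched on both strands, occurred in 25% of germline windows and 26.7% of all, and the motifs can overlap each other by a single letter at most. Germline genes with CACGTG had a median of 0.60, with 7 that rose and 1 that fell, Sycp3, and those without it a median of 1.40, with 16 that rose and 4 that fell. The windows of 5 germline genes are printed, and that of Tex15, which rose and has CACGTG in its window, is not. The 5 are too few to show how CACGTG goes with direction, for which the counts above stand. The windows read 5′ to 3′ on the strand of the gene in build NCBIM37, with every CG in capitals: Dazl (minus strand, intergenic, chr17:50432925-50433174, 23 CG), Hormad2 (minus strand, intergenic, chr11:4341109-4341358, 9 CG), Sohlh2 (plus strand, intergenic, chr3:54985700-54985949, 11 CG), Syce1 (minus strand, intergenic, chr7:147973754-147974003, 13 CG) and Sycp3 (plus strand, in an intron of Chpt1, chr10:87922064-87922313, 10 CG, with CACGTG and GCGGGA).
Dazl: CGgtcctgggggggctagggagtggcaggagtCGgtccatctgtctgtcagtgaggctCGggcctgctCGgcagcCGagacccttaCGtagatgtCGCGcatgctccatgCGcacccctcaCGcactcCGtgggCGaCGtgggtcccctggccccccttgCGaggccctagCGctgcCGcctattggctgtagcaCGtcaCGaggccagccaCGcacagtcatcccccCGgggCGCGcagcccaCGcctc
Hormad2: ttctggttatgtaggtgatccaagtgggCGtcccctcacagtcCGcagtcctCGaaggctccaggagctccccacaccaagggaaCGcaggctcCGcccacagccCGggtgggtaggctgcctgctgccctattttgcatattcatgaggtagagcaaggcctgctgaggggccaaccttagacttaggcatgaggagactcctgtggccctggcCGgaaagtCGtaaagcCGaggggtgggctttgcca
Sohlh2: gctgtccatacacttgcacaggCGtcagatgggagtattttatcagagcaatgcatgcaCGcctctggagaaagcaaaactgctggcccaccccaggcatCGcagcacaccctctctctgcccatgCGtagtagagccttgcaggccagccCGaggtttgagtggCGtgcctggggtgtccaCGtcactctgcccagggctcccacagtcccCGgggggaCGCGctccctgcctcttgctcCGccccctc
Syce1: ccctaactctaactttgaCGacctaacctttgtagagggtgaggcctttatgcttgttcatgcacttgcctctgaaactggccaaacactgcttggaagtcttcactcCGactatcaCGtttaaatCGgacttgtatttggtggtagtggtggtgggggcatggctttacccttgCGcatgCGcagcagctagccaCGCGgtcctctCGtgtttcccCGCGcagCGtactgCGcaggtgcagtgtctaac
Sycp3: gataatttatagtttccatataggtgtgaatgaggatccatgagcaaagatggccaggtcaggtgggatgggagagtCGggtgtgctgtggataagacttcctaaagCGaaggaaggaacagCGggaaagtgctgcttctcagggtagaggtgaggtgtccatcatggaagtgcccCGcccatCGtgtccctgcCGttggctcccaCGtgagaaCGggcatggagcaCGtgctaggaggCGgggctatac

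Genes of the 2-cell-like state, a rare state of ES cultures that resembles the early embryo, were higher but at low counts. Of 15 tested, 10 rose (66.7%, beside 17.9% of all tested genes) and none fell by edgeR's quasi-likelihood test. The median was 3.09, at a median level of 17.3 normalized counts. On chromosomes 7 or 11, where 38.6% and 40.8% of tested genes rose, lie 8 of the 15. The sum over the 19 genes of the list was 88.3 and 106 in WT and 920 and 735 in Cfp1−/− cells. Pramel6 and Pramel7, on chromosome 2, had 9.34 and 4.17 and 9.34 and 6.25 in WT and 149 and 84.5 and 174 and 94.7 in Cfp1−/− cells, with all Cfp1−/− values above all WT values. Zscan4c and Zscan4d, on chromosome 7, had 7.64 and 8.34 and 4.25 and 5.21 in WT and 71.4 and 81.1 and 56.6 and 69.3 in Cfp1−/− cells. Of the 10 that rose, 3 lie outside chromosomes 7 and 11, which are Pramel6, Pramel7 and Gm5662. The Zscan4, Pramel and Usp17-like genes are families of near-identical copies, so their counts are uncertain.

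Chromatin and imprinted genes gave mixed lists with a few large differences. Of 45 tested imprinted genes 14 rose (31.1%, beside 17.9% of all tested genes) and 6 fell (13.3%, beside 16.1%). On chromosomes 7 or 11 lie 23 of the 45. The median of 0.14 was -0.06 without WT replicate 1, 0.28 without WT replicate 2 and -0.01 without Cfp1−/− replicate 2, so its sign rests on single libraries. Of the list's members outside chromosomes 7 and 11, 3 rose, Plagl1, Nnat and Nap1l5, and 2 fell, Rtl1 and Ppp1r9a, and their median was -0.23. The list does not hold every imprinted gene, and Sfmbt2 on chromosome 2, which fell by 3.49 on the log2 scale, is not among its members. The maternally expressed growth inhibitor Cdkn1c had 554 and 861 normalized counts in WT and 82.5 and 176 in Cfp1−/− cells, and its neighbour Igf2, the paternally expressed growth factor, had 249 and 408 and 89.00 and 65.9. Both fell although most genes of chromosome 7 were higher, whereas Peg3, a paternally expressed zinc-finger gene of that chromosome, had 5604 and 7059 in WT and 19104 and 18165 in Cfp1−/− cells. Of 26 tested DNA methylation genes 5 fell, Gadd45a, Zbtb4, Uhrf1, Mbd3 and Dnmt1, and 4 rose, among them Dppa3, Apobec1 and Tdg (19.2% and 15.4%, near the shares of all tested genes). The median of -0.21 was -0.09 without WT replicate 1 and -0.02 with total count scaling. Dnmt1, the maintenance methyltransferase, and its partner Uhrf1 fell by 0.44 and 0.86 on the log2 scale. Gadd45a, at -1.51, was at -1.29 without Cfp1−/− replicate 2, short of the fold limit. Tet1 had 45872 and 24803 in WT and 30959 and 21016 in Cfp1−/− cells and Tet2 12505 and 6433 and 12909.6 and 8970.0, and neither passed. Of 36 tested Polycomb genes 7 rose and 7 fell (19.4% each, near the 17.9% and 16.1% of all tested genes) around a median of 0.04 (from -0.09 to 0.09 over the leave-out fits). Without the genes of chromosomes 7 and 11, 3 rose and 7 fell and the median was -0.15. Suz12, Pcgf2 and Ezh1, which rose, lie on chromosome 11.

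In the glycolysis, stress response and ribosomal protein lists more genes fell than rose, while more oxidative phosphorylation genes rose than fell. Of the glycolysis list 14 of 28 genes did not pass, and of the stress response list 15 of 28. Of 28 tested genes of glycolysis and glucose uptake 10 fell (35.7%, beside 16.1% of all tested genes) and 4 rose (14.3%, beside 17.9%). Those that rose were Pgam2, Hk1, Ldhb and Gpi1. The list's median of -0.25 was -0.08 without Cfp1−/− replicate 1 and -0.06 with total count scaling. Pdk1 (ENSMUSG00000006494, chromosome 2, 71711281 to 71741915), a pyruvate dehydrogenase kinase gene, had 11119.7 and 9778 normalized counts in WT and 2349 and 2908 in Cfp1−/− cells. Its log2 ratio was -1.96 (SE 0.18, Benjamini-Hochberg adjusted p = 0.000127 by the quasi-likelihood test of edgeR, lower in 2 of 2 Cfp1−/− replicates). Enolase, the product of Eno1, catalyses a late step of glycolysis, and Eno1 had 17229.5 and 22473 in WT and 6782 and 7044 in Cfp1−/− cells, while Tpi1 had 5616 and 6978 and 1172 and 2198. All Cfp1−/− values of these were below all WT values, and without WT replicate 2 the log2 fold change of Eno1 was -1.29, short of the fold limit. Gapdh, often used as a reference gene, fell by 0.98 on the log2 scale. In the list of amino acid and integrated stress response genes 11 of 28 fell (39.3%, beside 16.1% of all tested genes) and 2 rose, Cbs and Asns. The list's median of -0.40 ranged from -0.59 to -0.26 over the leave-out fits and was -0.21 with total count scaling. Atf4 (ENSMUSG00000042406, chromosome 15, 80085614 to 80087970), the central transcription factor of this response, had 3567 and 4868 in WT and 779 and 852 in Cfp1−/− cells. Chac1, Ddit3 and Nupr1 fell by 3.18, 0.94 and 1.56 on the log2 scale, whereas Asns and Cbs rose. Of 83 cytosolic ribosomal protein genes 60 fell (72.3%, beside 16.1% of all tested genes) and 3 rose, Rpl3l, Rpl29 and Rps3a (3.61%, beside 17.9%). The median was -0.70, and with total count scaling -0.51 beside 0.20 for all genes. Together the 83 genes took 4.15% and 4.48% of the normalized counts in WT and 2.79% and 3.26% in Cfp1−/− cells. Rps20 had 24099.6 and 24451 in WT and 7584 and 8834 in Cfp1−/− cells, and Rpl29 812 and 1010.1 and 2808 and 2629. Of 80 nuclear genes for oxidative phosphorylation subunits 22 rose (27.5%, beside 17.9% of all tested genes) and 3 fell, Atp5e, Cox5b and Atp5b, with a median of 0.29. The 9 that lie on chromosomes 7 or 11 all rose, and outside these 13 rose and the median was 0.24, while that of the whole list ranged from 0.16 to 0.43 over the leave-out fits. Atp5b passed only without Cfp1−/− replicate 2 (-0.53) when a library was left out. Ndufs5, of complex I, had 49.3 and 66.7 in WT and 273 and 350.0 in Cfp1−/− cells.

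Among DNA replication and mitosis genes more fell than rose, though 23 of 44 and 24 of 36 did not pass. Of 44 tested DNA replication genes 19 fell (43.2%, beside 16.1% of all tested genes) and 2 rose, Rfc4 and Lig1 (4.55%, beside 17.9%). The median of this list was -0.31, but -0.20 with TMM factors computed without chromosomes 7 and 11 and -0.12 with total count scaling. The helicase subunit Mcm7 had 12579 and 12784 normalized counts in WT and 7571 and 8371 in Cfp1−/− cells. Its fall did not pass without Cfp1−/− replicate 1 (-0.55). Of 36 mitosis genes 10 fell (27.8%, beside 16.1% of all tested genes) and 2 rose (5.56%, beside 17.9%), with a median of -0.15. Birc5 and Aurkb, which rose, both lie on chromosome 11. Top2a, the most abundant, had 64070.4 and 57815 in WT and 47928 and 56238 in Cfp1−/− cells and did not pass. Of 25 genes of cholesterol synthesis and uptake 8 fell (32.0%, beside 16.1% of all tested genes) and 1 rose, Srebf1 (4.0%, beside 17.9%). The list's median of -0.19 was -0.38 outside chromosomes 7 and 11 and -0.36 without Cfp1−/− replicate 2. With total count scaling the medians of the mitosis and cholesterol lists were 0.04 and 0.00, which turns their sign while the median of all genes is 0.20. Of 33 p53 targets and growth arrest genes 7 rose and 6 fell (21.2% and 18.2%, near the shares of all tested genes), with a median of 0.10 (from 0.09 to 0.18 over the leave-out fits). Trp53 itself, on chromosome 11, had 2473 and 2283 in WT and 4669 and 4324 in Cfp1−/− cells, and the cell death gene Pmaip1 had 1108 and 1699 and 327 and 303.

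Further signalling lists held few called genes. Of 66 tested Wnt genes 11 rose (16.7%, beside 17.9% of all tested genes) and 15 fell (22.7%, beside 16.1%), with a median of 0.02 that ranged from -0.12 to 0.05 over the leave-out fits, so its sign is not settled, and outside chromosomes 7 and 11 those that rose were 6 and those that fell 13. Wls, the carrier that Wnt proteins need for secretion, had 331 and 447 normalized counts in WT and 87.1 and 115 in Cfp1−/− cells, and Ctnnb1 had 27344 and 26343 and 20809 and 23366 and did not pass. Of 22 retinoic acid genes 5 rose, Crabp1, Rbp4, Meis1, Meis2 and Rara, and 5 fell, among them Rxrg, Dhrs3, Rdh10 and Rarg. These were 22.7% each, beside 17.9% and 16.1% of all tested genes. The list's median of 0.24 was 0.07 without WT replicate 2 and 0.09 without Cfp1−/− replicate 2. Rarg did not pass without WT replicate 1 (-0.59) or Cfp1−/− replicate 2 (-0.69). The retinoic acid carrier gene Crabp1 had 66.3 and 80.3 in WT and 415 and 603 in Cfp1−/− cells, with a wide gap between the lines. Of 26 Notch and Hedgehog genes 4 fell (15.4%, beside 16.1% of all tested genes), Lfng, Smo, Ptch1 and Jag2, and none rose by edgeR's quasi-likelihood test, with a median of -0.30 that was -0.10 without WT replicate 2. Smo, at -1.55, was at -1.26 without WT replicate 2 and -1.25 without Cfp1−/− replicate 1, both short of the fold limit. Of 34 interferon response genes 11 rose (32.4%, beside 17.9% of all tested genes) and 3 fell, Bst2, Rsad2 and H2-D1 (8.82%, beside 16.1%). The list's median of 0.20 was 0.09 with genes at 0 counts in WT set to their bound and -0.18 outside chromosomes 7 and 11. It was 0.62 without WT replicate 2 and 0.09 without Cfp1−/− replicate 2. Ifit2 had 73.9 and 122 in WT and 286 and 341 in Cfp1−/− cells.

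Chromosomes 7 and 11 stood apart as wholes. The median log2 fold change was 0.53 over 1283 tested genes of chromosome 7 and 0.51 over 1279 of chromosome 11, or ratios of 1.44 and 1.43, against 0.01 over all tested genes and -0.07 over those outside both. Taken per replicate number, the medians were 0.52 and 0.50 on chromosome 7 and 0.53 and 0.47 on chromosome 11. Within a group, the replicates differed by medians of -0.04 and -0.02 on chromosome 7 and -0.02 and -0.04 on chromosome 11, so the shift lay between the lines and not between replicates. More than 3 in 4 genes were above 0, 76.5% on chromosome 7 and 76.6% on chromosome 11, beside 45.3% outside them. Among the 17 other chromosomes apart from 19 and Y the medians ran from -0.23 on chromosome 8 to 0.04 on chromosome 14, and the shares above 0 from 37.4% to 52.1%. The shift ran along both chromosomes. On chromosome 7 all 14 windows of 10 Mb with at least 20 tested genes had medians above 0, from 0.20 at 90 to 100 Mb to 0.73 at 140 to 150 Mb. On chromosome 11 it was 13 of 13, from 0.03 at 20 to 30 Mb to 0.67 at 90 to 100 Mb. With total count scaling the medians were 0.72 and 0.70 beside 0.20 for all genes. Genes with a mean under 200 normalized counts had medians of 0.70 and 0.80 on these chromosomes and those above 0.45 and 0.42, beside 0.19 and -0.15 outside, so the shift was found at both levels. The number of copies of either chromosome was not measured.

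**Figure D3:**
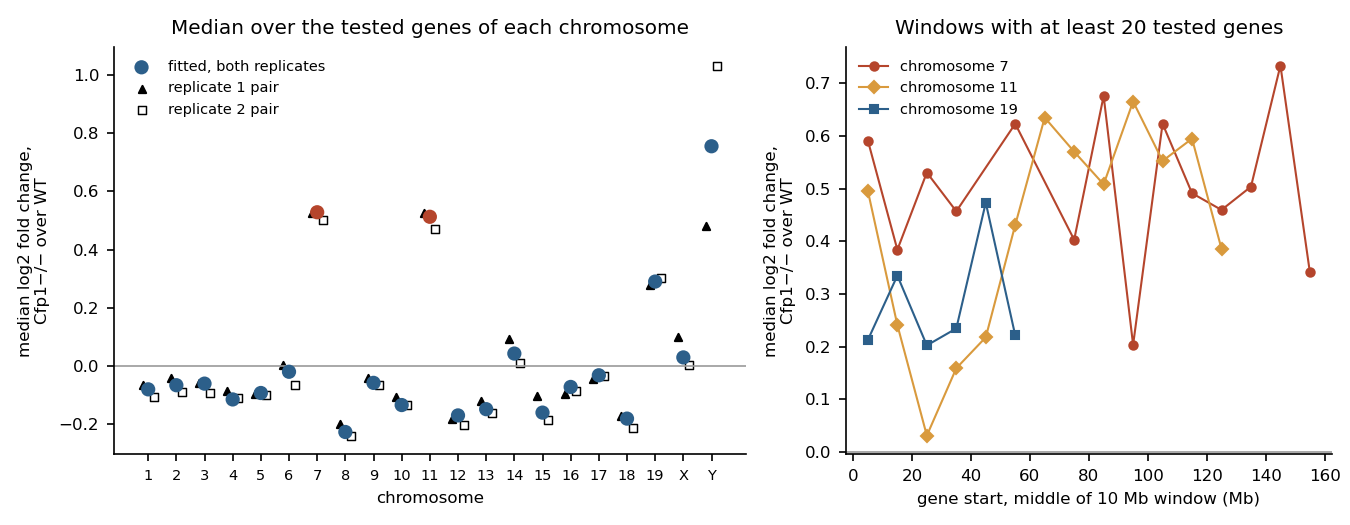
Median log2 fold change of Cfp1−/− over WT cells per chromosome, fitted and for each replicate number (left), and along chromosomes 7, 11 and 19 in windows of 10 Mb with at least 20 tested genes (right). Chromosomes 7 and 11 lie at 0.53 and 0.51, and all their windows drawn lie above 0.

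On chromosome 7, 58 genes were called higher (4.52%) and 7 lower (0.546%), and by the adjusted p-value alone 495 rose (38.6%) and 57 fell (4.44%). With each gene taken relative to the median of its chromosome, 17 were called higher and 20 lower. Ceacam20 (ENSMUSG00000070777, chromosome 7, 20550761 to 20576462), a cell adhesion gene, had 18.7 and 15.6 normalized counts in WT and 795 and 775 in Cfp1−/− cells, with a log2 ratio of 5.53 (SE 0.338, Benjamini-Hochberg adjusted p = 1.49e-05 by the quasi-likelihood test of edgeR, higher in 2 of 2 Cfp1−/− replicates). Myo7a, a myosin of sensory hair cells, had 32.3 and 31.3 and 857 and 609, and Acan, for the cartilage proteoglycan aggrecan, had 121 and 118 and 792 and 1001. These values exceed the block by far, as do those of Nlrp4c (4.22), one of several similar oocyte genes, and Kndc1, with 168 and 103 in WT and 1214 and 929.6 in Cfp1−/− cells. The genes that fell most against the block were Cdkn1c (-2.42), Igf2 (-2.05), Mctp2 (-2.04), Odz4 (-1.60) and the cyclin E gene Ccne1 (-1.41). Odz4 did not pass without WT replicate 1 (-1.17), Cfp1−/− replicate 1 (-1.75) or Cfp1−/− replicate 2 (-1.45), and Ccne1 was short of the fold limit without WT replicate 1 (-1.27) and with TMM factors computed without these chromosomes. Of the naive pluripotency genes on this chromosome Zfp296 (0.85) was close to the limit and passed only in 7 alternative fits and without Cfp1−/− replicate 2 (1.18), while Utf1 (0.72), which passed in no fit with a library left out, and Fgf4 rose. Fgf4 had 3432 and 2317 in WT and 9249 and 9213 in Cfp1−/− cells. Subunit genes of lysine 4 methyltransferases also lie here, with Setd1a at 0.95 and Wbp7 at 1.06.

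On chromosome 11, 42 genes were called higher (3.28%) and 11 lower (0.86%), and by the adjusted p-value alone 522 rose (40.8%) and 61 fell (4.77%). Relative to the median of the chromosome, 12 were called higher and 20 lower. Calcoco2 (ENSMUSG00000006056, chromosome 11, 95960640 to 95973278), an autophagy receptor gene, had 294 and 164 normalized counts in WT and 5088 and 2909 in Cfp1−/− cells, with a log2 ratio of 4.15 (SE 0.422). Both Cfp1−/− replicates were many times above WT. The next were Slc13a5 (3.55), a citrate transporter gene, Myh13 (3.46), a muscle myosin gene, and Ttll6 (3.39), an enzyme gene of tubulin modification. The axon guidance gene Ntn1 had 1119.5 and 639 in WT and 113 and 122 in Cfp1−/− cells, and Bcl11a, a zinc-finger gene, had 464 and 442 and 45.4 and 76.9. Grb10, an imprinted adaptor of insulin receptor signalling, had 6048 and 8658 and 1529 and 1732. These genes fell although most log2 fold changes of the chromosome were above 0. The others were the lactate exporter gene Slc16a3 (-2.35) and Igfbp3 (-2.49), which did not pass without WT replicate 2 (-1.14), Cfp1−/− replicate 1 (-2.42) or Cfp1−/− replicate 2 (-2.54). Ddc and Meis1 rose by 2.78 and 1.78, above the block.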

How the data were processed

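RNA without ribosomal RNA went into stranded libraries of the authors, who, per the submitters' processing notes, aligned reads to build mm9 with STAR 2.2.1 and counted them per gene with HTSeq, leaving reads on overlapping genes uncounted. The deposited raw table holds counts per technical replicate for 22375 genes. The second deposited table holds a signal, the authors' counts summed per biological replicate and divided by a DESeq size factor. Technical replicates were summed here, to totals of 23383421 to 29422711 in the libraries compared. In R 4.3.3 with edgeR 4.0.16, filterByExpr kept 15758 genes, and TMM factors, glmQLFit and glmQLFTest over all 8 biological replicates of the study gave the contrast, with the Benjamini-Hochberg adjustment. Scripts were tested on simulated data.

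Exon coordinates came from GENCODE vM1 and promoter windows from the NCBIM37 genome, and 12 older symbols of the lists were matched through RefSeq synonyms. Members and lists were chosen with earlier results of these data known. Named genes were Cxxc1, the Y-linked genes, outside chromosomes 7 and 11 the 15 called genes with the highest and the 15 with the lowest log2 fold change, on each of these chromosomes 5 and 5, from each list up to 6 called members with the smallest adjusted p-values, filled up to 3 with the most abundant members, and any member of the naive pluripotency and lysine 4 methylation lists. Clone names were passed over in the rankings. A few named genes and a promoter window are not reported here.

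Alternatives were DESeq2 1.42.0 size factors and Wald test, TMM factors without chromosomes 7 and 11, no low-count filter, the replicate number as a block, untreated libraries alone, first technical replicates alone, a fold limit of 2, no mean limit, values relative to the chromosome median and each replicate left out in turn. Total count scaling for the calls, and a fit without a technical replicate of a treated Cfp1−/− sample that had lost counts, were chosen after seeing the data. Intervals and floors of 3 counts cover counting error only.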

Additional observations from a re-analysis of the deposited data

How the results depend on the processing

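None of the 207 named genes changed sign with a call under the alternative fits, total count scaling aside, which was used for counts and medians only. With each library left out in turn, between 17 and 33 of them no longer passed, and a lone sample of a group was assumed to vary like the other groups. A fold limit of 2 gave 309 higher and 451 lower genes outside chromosomes 7 and 11, 123 and 12 on chromosome 7 and 98 higher on chromosome 11. No mean limit gave 1040 and 600, 214 and 28, and 186 and 27, because more genes can be called. Total count scaling gave 91 higher genes on chromosome 7 and 70 on chromosome 11, with chromosome medians of 0.72 and 0.70. Relative to the chromosome median 17 and 20 genes were called on chromosome 7 and 12 and 20 on chromosome 11. The median of chromosome 7 was 0.50 with DESeq2 size factors, 0.50 with the Wald test, 0.48 without a filter and 0.64 with TMM factors without chromosomes 7 and 11, which gave 0.62 for chromosome 11. With a library left out, genes past the adjusted p-value outside these chromosomes numbered 2322 to 3159, fewer than 4227 as fewer samples remain (4476 without the treated technical replicate that had lost counts), and the medians were 0.51 to 0.55 and 0.48 to 0.56. The replicate number as a block gave 192 higher and 225 lower genes and 5505 past the adjusted p-value. The samples share only that number, and the replicate differences of the groups correlated across genes at 0.14 to 0.451 over the 6 pairs of groups, and at 0.212 for the untreated pair. Where not given, the cause was not tested. Depth limits genes near the floor of 3 counts, whose ratios have wide intervals.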

Other observations

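Chromosome 19 had the next highest median of the autosomes. Its 541 tested genes had a median log2 fold change of 0.29, with 0.28 and 0.30 by replicate number, and 68.8% were above 0. By the adjusted p-value of edgeR's test 120 of its genes rose (22.2%) and 23 fell (4.25%), beside 13.7% and 18.3% of all genes outside chromosomes 7 and 11. All 6 windows of 10 Mb with at least 20 tested genes were above 0, from 0.20 at 20 to 30 Mb to 0.47 at 40 to 50 Mb. Chromosome 8 lay at the other end with a median of -0.23, and 2 of its 12 windows were above 0. Of its 823 tested genes 94 rose (11.4%) and 202 fell (24.5%), beside the same 13.7% and 18.3%. In doxorubicin-treated cells, which are other samples of the same lines, chromosomes 7 and 11 had medians of 0.47 and 0.51. Chromosome 19 had -0.01 there, or 0.21 without the technical replicate that had lost counts.

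Differences of at least 2-fold were more frequent between the WT replicates than between the Cfp1−/− replicates. Of 9043 genes whose mean reached 200 normalized counts, 176 (1.95%) differed at least 2-fold between the WT replicates and 81 (0.896%) between the Cfp1−/− replicates, with SDs of the log2 ratio of 0.33 and 0.31. Genes of the naive and primed states were among those that differed, with Tbx3 at 818 and 210 and Fgf5 at 110 and 658 in the WT replicates. The Cfp1−/− replicates differed in the same direction, with Tbx3 at 7124 and 3548 and Fgf5 at 13.9 and 58.3. Technical replicates of the untreated samples differed by chi-square per degree of freedom of 1.01 to 1.05, which is close to sampling noise. Biological replicates, over first technical replicates, differed by 19.3 in WT and 20.8 in Cfp1−/− cells, so by this measure the WT replicates were not the more variable pair.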
